A study of Sparus aurata with 5 samples.

Results

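The expression of 14 genes of tight junctions and of immunity was compared between gilthead seabream juveniles fed GH10 and those fed GB10. GH10 is a feed with LB-GUThealth at 1%, and GB10 is a feed with LB-GREENboost at 1%. The fish were chosen by their diet label, 12 fed GH10 and 12 fed GB10 of 60 fish in 5 diets. These 24 fish have 332 of the 823 deposited values, 165 from GH10 and 167 from GB10. The question was whether both ingredients, given at the same inclusion, left the anterior intestine with different transcript levels. LB-GUThealth and LB-GREENboost are formulations of a hydrolysed blend of the microalgae Arthrospira and Microchloropsis, with choline, calcium carbonate and betaine as excipients. LB-GUThealth holds the smaller share of the algal blend, so the feeds differ in algae and in excipients together, and the components cannot be told apart. GH5 and GB5, with 12 fish each, held LB-GUThealth and LB-GREENboost at 0.5%. The control feed, CT, held neither ingredient, and its 12 fish are given as the background. No strain, age or sex is given for the fish. Each diet was given to triplicate tanks, but the tank of each fish is not named. Single fish therefore served as replicates, and any spread between tanks makes the p-values here smaller than they should be.

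Epithelial cells of the intestine are joined by tight junctions, where claudins of neighbouring cells meet and set how freely ions and small solutes pass between cells. Some claudins seal this path, whereas others form pores in it. Occludins are a separate family of membrane proteins of the same junctions. In the same mucosa, lymphocytes and cells that sense microbes lie below and between the epithelial cells. RNA was taken from the whole anterior intestine, so fewer cells of a type and less RNA per cell cannot be told apart. None of the 14 targets marks another tissue, and the labelled tissue could not be checked further with them.

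Every value is a relative expression, the ratio of a target to the reference gene eef1a (translation elongation factor 1-alpha) in the same fish, scaled so that the mean of CT is 1. Differences are given on the log2 scale as GH10 minus GB10, where 1 is a 2-fold difference, with the standard error (SE) and a 95% interval. Each difference was tested with a two-sided permutation test over fish, and p-values were also adjusted over the 14 targets by the Benjamini-Hochberg method (BH). Levels of different genes are not compared with each other, because the ratio is scaled gene by gene.

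With p under 0.05, 2 of the 14 targets differed between diets, or 14.3%, and both were claudins that were higher in GH10: cldn5 by 1.45-fold and cldn15 by 1.30-fold. No target passed BH adjustment, where the lowest value was 0.333 (permutation test). Of the 7 claudins, 5 had a higher mean in GH10, with a median log2 difference of 0.25. The 3 occludins all had a lower mean in GH10, with a median of -0.16, but this direction depends on the list of eef1a cycles used for them. Of the 4 immune-related genes, 3 had a higher mean in GH10, with a median of 0.16. Over all 14 targets, 8 had a higher mean in GH10 and the median was also 0.16. These counts and medians depend on eef1a and on the cycles used. With the mean of the other targets as the reference, the median was 0.11 for the claudins (5 of 7 higher in GH10), 0.00 for the immune-related genes (2 of 4) and 0.07 over all targets (9 of 14). With cycles alone, it was 0.03 for the claudins (4 of 7), -0.04 for the immune-related genes (1 of 4) and 0.02 over all targets (7 of 14). Both alternatives also use the tlr9 and cd4 cycles without a deposited ratio, and the igm cycles as deposited. Under the mean of the other targets, the 14 differences nearly cancel by construction. A shift of all targets together therefore cannot appear with that reference. With eef1a and all cycles, the median of the immune-related genes was 0.19 (3 of 4). Differences of 2-fold in either direction lay outside the 95% interval for 8 targets, which were 3 claudins, the 3 occludins and 2 immune-related genes. For the 3 occludins and igm, these intervals hold for the deposited ratios only. The eef1a list of the occludins and some cycles of igm could not be settled, as described below.

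**Figure D1:**
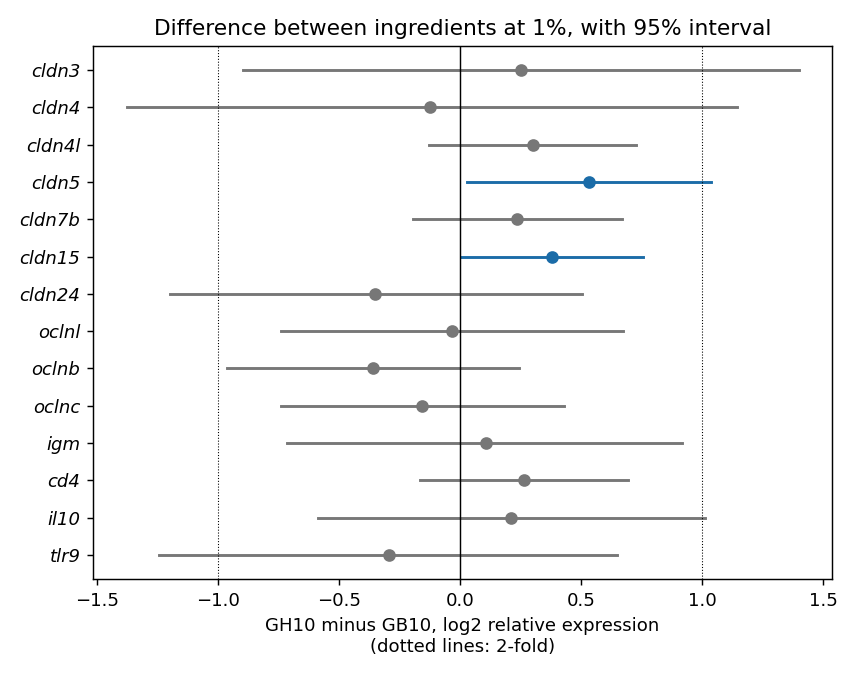
Difference in mean log2 relative expression, GH10 minus GB10, for the 14 targets. Points are differences, lines are 95% intervals from the permutation test, dotted lines mark 2-fold, and blue marks p under 0.05. Only the intervals of cldn5 (0.03 to 1.04) and cldn15 (0.00 to 0.75) lie above 0.

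The claudin cldn5, a sealing claudin in mammals, had the smallest p of all targets. Which cells of the intestine its RNA came from was not measured. In order of level, relative expression of cldn5 was 0.472, 0.728, 0.802, 0.819, 0.877, 0.984, 1.19, 1.48, 1.50, 1.77, 1.82 and 1.96 in the 12 fish fed GH10. In the 12 fish fed GB10 it was 0.405, 0.457, 0.542, 0.563, 0.700, 0.799, 0.822, 0.915, 0.994, 1.09, 1.21 and 1.25. The diets overlapped, but 5 fish fed GH10 were above every fish fed GB10, and 2 fish fed GB10 were below every fish fed GH10. The mean was 1.20 ± 0.493 in GH10 and 0.812 ± 0.287 in GB10, with 1.00 ± 0.442 in CT (SD, n = 12 each). The log2 difference of cldn5 was 0.53 (SE 0.24, 95% interval 0.03 to 1.04, permutation p = 0.0399, BH 0.333). The control fish ranged between 0.381 and 1.93 with a median of 0.854, and so spanned nearly the range of both diets.

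The difference of cldn5 lay in the cycles of both genes in the ratio. A quantification cycle is lower when there is more template, by 1 cycle for a doubling. The cldn5 cycle was 28.0 ± 0.361 in GH10 and 28.3 ± 0.291 in GB10, with 28.1 ± 0.467 in CT (SD, n = 12 each), so it was lower in GH10 by 0.295 cycles. The eef1a cycle was higher in GH10 by 0.237 cycles, and both parts add up in the ratio. The amount of cDNA enters both cycles, so such a split is arithmetic and does not say which gene changed. Without any reference, the log2 difference of cldn5 was 0.30 (permutation p = 0.0365, BH 0.511). With the mean of the other targets as the reference in place of eef1a, it was 0.37 (permutation p = 0.0243, BH 0.340). Each of these settings uses the same cldn5 cycles of the same fish, so they are not separate evidence. Restricted to the 9 fish fed GH10 and 11 fish fed GB10 with a value for all 14 targets, it was 0.36 (permutation p = 0.169). This left out fish 2, 9 and 12 of GH10, at 1.48, 0.802 and 1.96 for cldn5, and fish 11 of GB10, at 0.405. Fish 2 and 12 lacked only a tlr9 ratio, and both were above every fish fed GB10 in cldn5. Leaving out 1 fish at a time gave a difference between 0.45 and 0.64 and a permutation p between 0.0104 and 0.0742. It was under 0.05 in 13 of 24 cases, and p was highest without fish 11 of GB10, the lowest of the 24 fish.

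The claudin cldn15, which forms cation pores in the mammalian intestine, had the next smallest p. The 12 fish fed GH10 ranged from 0.664 to 1.91 with a median of 1.28, and the 12 fed GB10 from 0.593 to 1.36 with a median of 0.983. Again, 5 fish fed GH10 were above every fish fed GB10, and 2 fish fed GB10 were below every fish fed GH10. The mean was 1.27 ± 0.416 in GH10 and 0.952 ± 0.224 in GB10, with 1.00 ± 0.202 in CT (SD, n = 12 each). The log2 difference was 0.38 (SE 0.18, 95% interval 0.00 to 0.75, permutation p = 0.0475, BH 0.333). Of the difference, 0.143 cycles lay in the cldn15 cycle and 0.237 in the eef1a cycle. Without a reference, the log2 difference of cldn15 was 0.14 (permutation p = 0.293), and with the mean of the other targets it was 0.21 (permutation p = 0.270). Unlike for cldn5, p was thus not under 0.05 with either of these references. Leaving out 1 fish at a time, p was under 0.05 in 10 of 24 cases (permutation p 0.0152 to 0.0871), and it was highest without fish 8 of GB10.

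**Figure D2:**
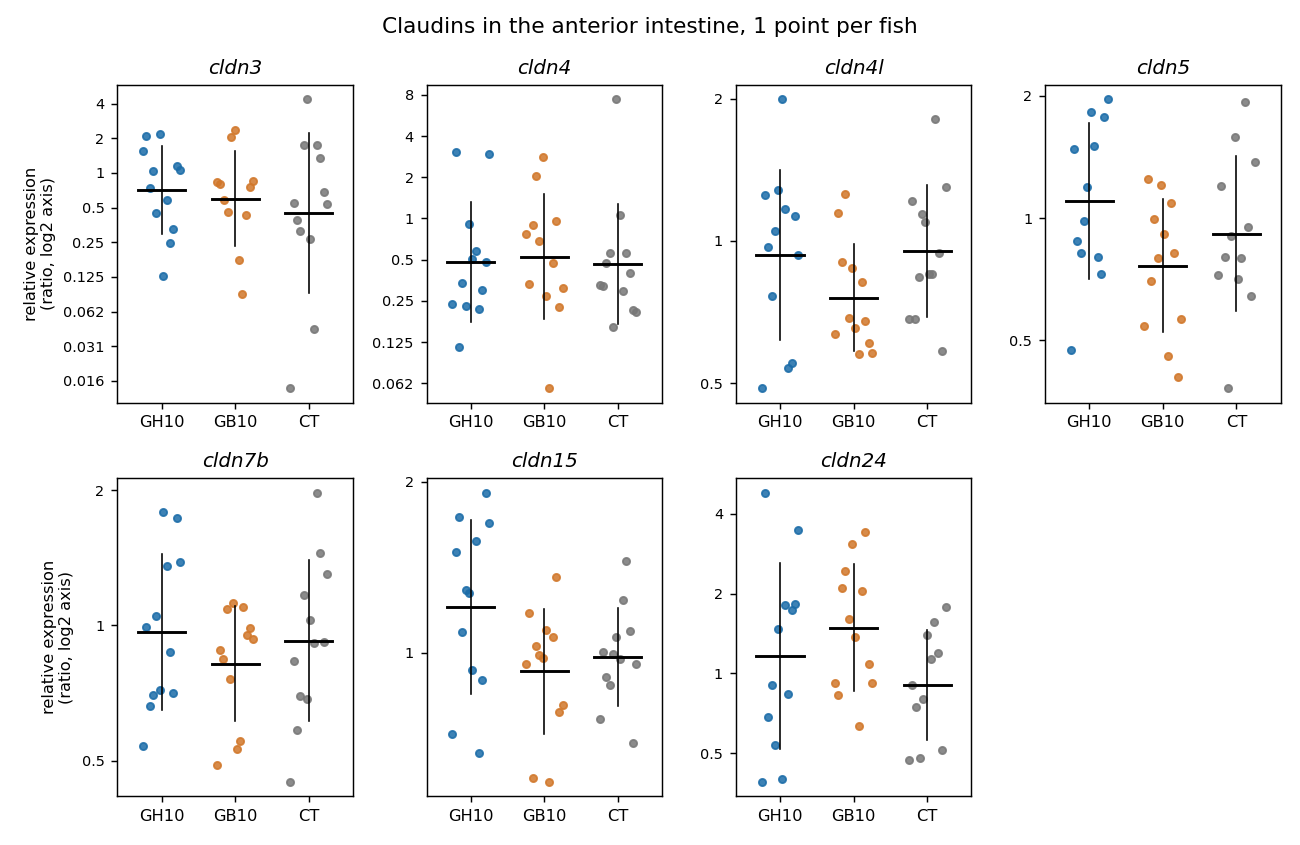
Relative expression (ratio to eef1a, mean of CT = 1, log2 axis) of the 7 claudins in each fish fed GH10, GB10 and CT. Horizontal bars are means of log2 values, vertical lines 1 SD on either side, and the horizontal place of a point within a diet is its row only. In cldn5 and cldn15, 5 fish fed GH10 each lie above all fish fed GB10, and the remaining fish overlap.

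The 5 other claudins did not differ between diets with p under 0.05. For cldn4l, a claudin 4-like gene, the fish fed GH10 ranged from 0.488 to 1.99 with a median of 1.01, and those fed GB10 from 0.576 to 1.26 with a median of 0.682. The GH10 fish lay on both sides, 2 above and 3 below every fish fed GB10. The mean of cldn4l was 1.01 ± 0.416 in GH10 and 0.785 ± 0.225 in GB10, with 1.00 ± 0.341 in CT (SD, n = 12 each), and the log2 difference was 0.30 (SE 0.20, 95% interval -0.13 to 0.73, permutation p = 0.159, BH 0.627). Of this difference, 0.0629 cycles lay in the cldn4l cycle and 0.237 in the eef1a cycle. For cldn7b the log2 difference was 0.24 (95% interval -0.20 to 0.67, permutation p = 0.269), and without a reference it was -0.0017. As for cldn5 and cldn15, the upper end of cldn7b was in GH10, with 4 fish above every fish fed GB10.

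The claudins cldn3, cldn4 and cldn24 were amplified late, at mean cycles of 31.0, 32.6 and 30.2 over GH10 and GB10. They varied far more between fish than the other claudins. The log2 difference was 0.25 for cldn3 (95% interval -0.90 to 1.40, permutation p = 0.653), with 12 fish fed GH10 and 11 fed GB10. For cldn4, which tightens the barrier in mammals, it was -0.12 (95% interval -1.38 to 1.15, permutation p = 0.842). For cldn24 it was -0.35 (95% interval -1.20 to 0.51, permutation p = 0.396). A difference of 2-fold lay inside each of these 3 intervals, so neither a 2-fold difference nor its absence could be shown at this number of fish. For cldn24, both diets had means above CT, at 1.57 ± 1.34 in GH10 and 1.70 ± 0.917 in GB10, with 1.00 ± 0.453 in CT (SD, n = 12, 12 and 11). The cldn24 value of fish 6 of CT, 10.3 when recomputed from its cycle, is left out of that CT mean. With it, CT was 1.77 ± 2.71 (SD, n = 12), above the means of both diets. The cldn24 difference was larger without eef1a, at -0.58 with the mean of the other targets (permutation p = 0.0665) and -0.59 with cycles alone (permutation p = 0.135).

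The eef1a cycle enters the ratio of every target. It was 18.9 ± 0.480 in GH10, with a range of 18.0 to 19.6, and 18.7 ± 0.354 in GB10, with a range of 18.1 to 19.2. In CT it was 18.8 ± 0.498 (SD, n = 12 each). GH10 and GB10 differed by 0.24 cycles (SE 0.17, 95% interval -0.12 to 0.59, permutation p = 0.182), which multiplies the ratio of every claudin and immune-related gene with a value in all fish by 1.18 in GH10 over GB10. Within a diet, fish low in eef1a cycle were also low in several ratios. Part of this is built in, because a lower eef1a cycle lowers every ratio of that fish that uses it. Fish 1, 9 and 10 had the 3 lowest eef1a cycles of GH10, and the same 3 fish were the 3 lowest in cldn4l, in cldn5 and in cldn15, whereas for cldn7b 1 of them was among the 3 lowest. In GB10, the 3 fish with the lowest eef1a cycles, 1, 8 and 12, included 2 of the 3 lowest in cldn4l, 2 of 3 in cldn5, 2 of 3 in cldn7b and 1 of 3 in cldn15. At the upper end, the eef1a cycles of fish 7, 8, 11 and 12 of GH10 (19.49, 19.335, 19.585 and 19.285) were above the highest of GB10, 19.23. These fish were above every fish fed GB10 in cldn7b and, together with fish 2, in cldn5. By the cldn5 cycle alone, fish 8 and 11 (27.93 and 27.94) were not below the lowest of GB10, 27.92. Subtracting eef1a did not narrow the spread between fish for most targets. Pooled over all 5 diets, the SD within diets was larger after normalisation than in the cycles for 8 of the 11 targets other than occludins. It was 0.43 against 0.32 for cldn4l, 0.55 against 0.42 for cldn5 and 0.40 against 0.33 for cldn15. For cldn4 (1.5184 against 1.5178) and cldn24 (0.995 against 0.991) it was nearly the same, and for igm, cd4 and il10 it was smaller. Whether eef1a differed through its own expression or through the amount of cDNA was not tested.

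**Figure D3:**
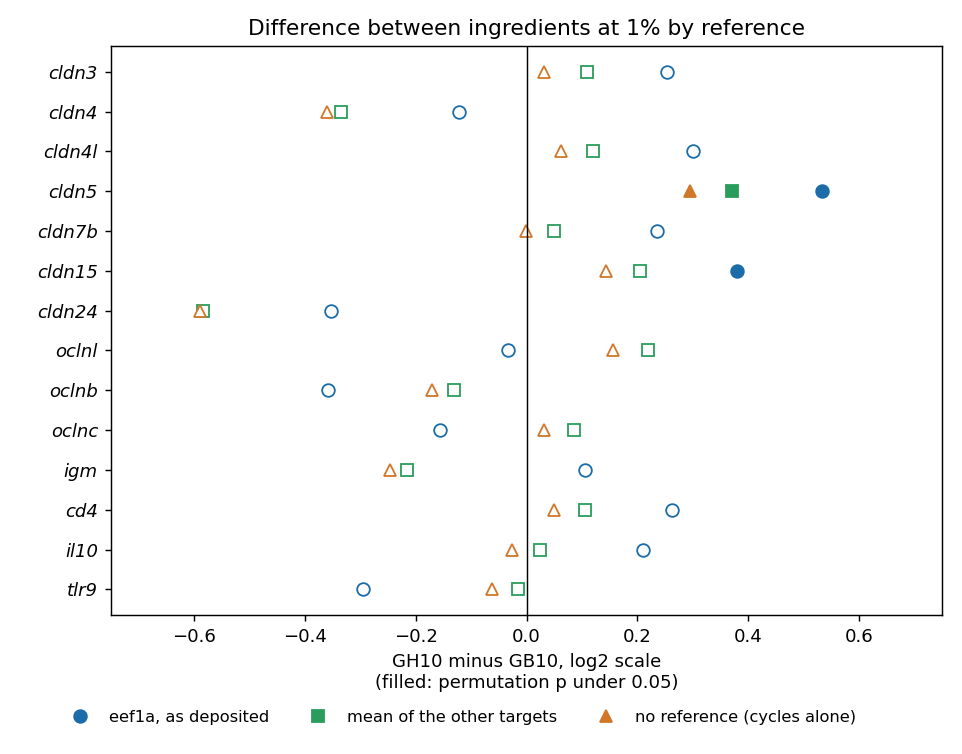
Difference GH10 minus GB10 on the log2 scale for the 14 targets with eef1a as deposited, with the mean of the other targets as the reference, and with cycles alone (sign turned so that more template is higher). Filled symbols have a permutation p under 0.05. The difference of cldn5 is filled with all 3 (0.53, 0.37 and 0.30), whereas that of cldn15 is filled only with eef1a (0.38, against 0.21 and 0.14). None passes BH adjustment, and all 3 settings use the same cycles of each target.

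None of the 3 occludins differed between diets with p under 0.05. For oclnb, the fish fed GH10 ranged from 0.221 to 1.11 with a median of 0.678, and those fed GB10 from 0.390 to 2.58 with a median of 0.686. The medians were close, and 2 fish fed GB10, at 1.96 and 2.58, were above every fish fed GH10. The mean of oclnb was 0.657 ± 0.239 in GH10 and 0.924 ± 0.661 in GB10, with 1.00 ± 0.558 in CT (SD, n = 12 each), and the log2 difference was -0.36 (SE 0.29, 95% interval -0.96 to 0.24, permutation p = 0.237, BH 0.627). The log2 difference was -0.03 for oclnl (95% interval -0.74 to 0.67, permutation p = 0.925) and -0.16 for oclnc (95% interval -0.74 to 0.43, permutation p = 0.579).

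The ratios of the occludins rest on another list of eef1a cycles than those of the other genes. That second list holds the same 60 cycles, but they are given to other fish and other diets, and 0 of the 24 fish fed GH10 or GB10 have the same cycle in both. Of its 12 cycles for GH10, 1 is found among the first-list cycles of GH10, 4 among those of GB10, 4 in GH5, 2 in GB5 and 1 in CT. In the second list, eef1a was 18.6 ± 0.350 in GH10 and 18.8 ± 0.434 in GB10 (SD, n = 12 each), so the difference had the opposite sign, at -0.19 cycles (permutation p = 0.254). With the first list for all targets, the log2 differences were 0.39 for oclnl, 0.07 for oclnb and 0.27 for oclnc, all higher in GH10. Which list belongs to the occludin cycles, and whether these cycles follow the order of the fish in the first list, could not be settled from the files. The direction of the occludins between ingredients is therefore not known.

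**Figure D4:**
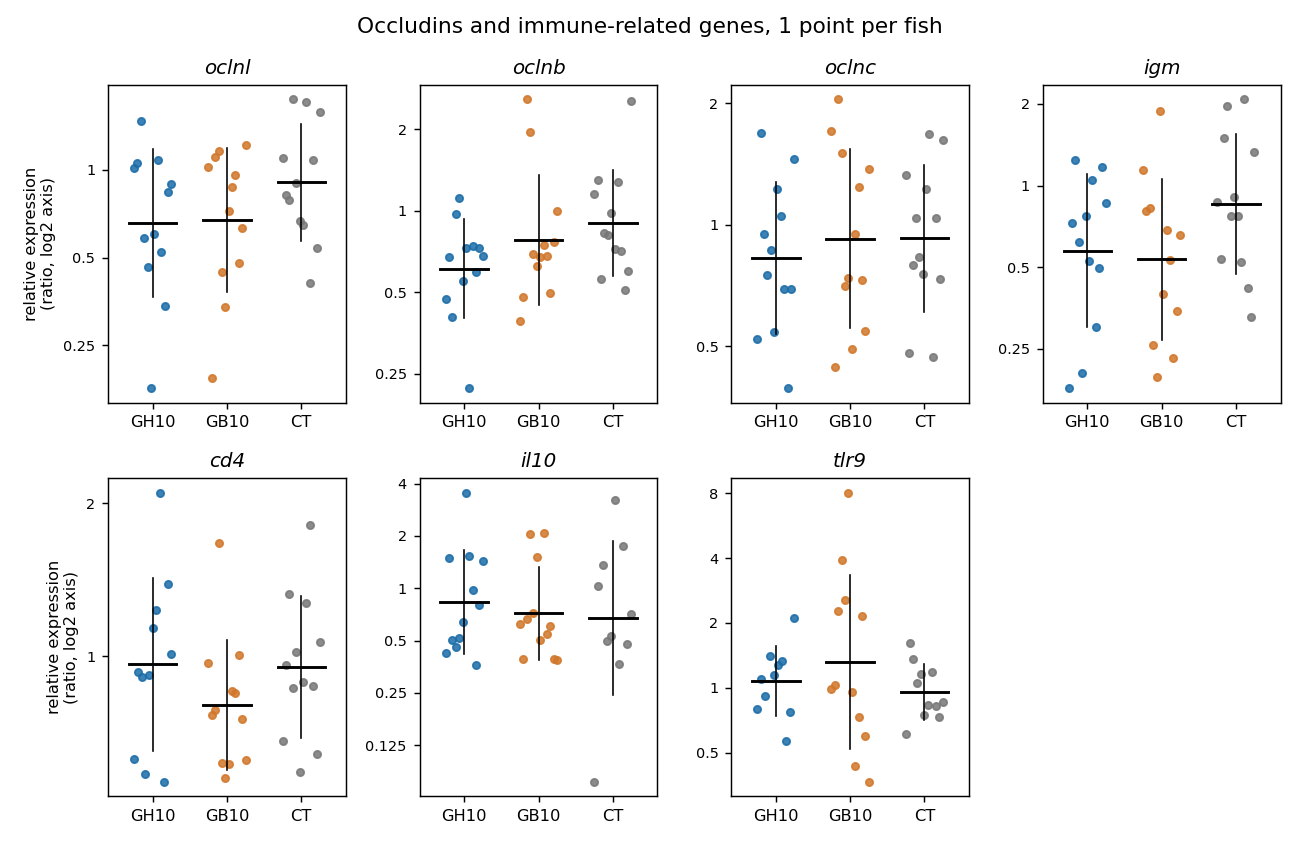
Relative expression (ratio to eef1a, mean of CT = 1, log2 axis) of the 3 occludins and 4 immune-related genes in each fish fed GH10, GB10 and CT. Horizontal bars are means of log2 values, vertical lines 1 SD on either side, and the horizontal place of a point within a diet is its row only. The diets overlap in every panel, and for tlr9 the 10 deposited values of GH10 (0.567 to 2.11) lie within the range of GB10 (0.369 to 8.03).

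Among the immune-related genes, cd4, the co-receptor of helper T cells, had the smallest p. Fish fed GH10 ranged from 0.566 to 2.10 with a median of 0.930, and those fed GB10 from 0.574 to 1.67 with a median of 0.774. The range of GB10 was inside that of GH10, with 1 fish fed GH10 beyond it at each end. The mean of cd4 was 1.04 ± 0.440 in GH10 (SD, n = 11) and 0.840 ± 0.297 in GB10, with 1.00 ± 0.342 in CT (SD, n = 12 each). The log2 difference was 0.26 (SE 0.21, 95% interval -0.17 to 0.69, permutation p = 0.220, BH 0.627). Over the fish with a cd4 ratio, the cd4 cycle was higher in GH10 by 0.0587, which lowers the ratio. The eef1a cycle was higher by 0.322, which raises it. Without a reference, and with the cycles of all fish, the log2 difference of cd4 was 0.05 (permutation p = 0.812). The cd4 value of fish 9 of GH10 was left out of the deposited ratios, although at 1.17, recomputed from its cycle, it lies within the range of the other fish of its diet. For il10, an anti-inflammatory cytokine, the log2 difference was 0.21 (95% interval -0.59 to 1.01, permutation p = 0.588).

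For igm, the heavy chain of immunoglobulin M made by B cells, the log2 difference was 0.11 (95% interval -0.71 to 0.92, permutation p = 0.788). Both diets had means below CT, at 0.679 ± 0.359 in GH10 and 0.662 ± 0.477 in GB10, with 1.00 ± 0.589 in CT (SD, n = 12 each). In 4 fish of GH10 and 4 of GB10, the deposited igm cycle is equal to that of cldn15 and does not give the deposited ratio. In the 16 fish with an igm cycle of their own, the log2 difference was -0.15 (permutation p = 0.782), so the direction of igm is not known either.

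The gene tlr9 encodes an endosomal receptor for microbial DNA, and its deposited ratios differed between diets in their spread. It was amplified late, at a mean cycle of 31.5 over GH10 and GB10. The 10 deposited values of GH10 ranged from 0.567 to 2.11 with a median of 1.13, and the 12 of GB10 from 0.369 to 8.03 with a median of 1.01. Of the fish fed GB10, 5 were above and 2 below every fish fed GH10. The mean absolute deviation from the median on the log2 scale was 0.40 in GH10 and 1.05 in GB10 (permutation p = 0.0342, BH 0.479), and tlr9 was the only 1 of 14 targets (7.14%) with p under 0.05 in this test. The mean of tlr9 was 1.14 ± 0.434 in GH10 (SD, n = 10) and 2.01 ± 2.18 in GB10 (SD, n = 12), with 1.00 ± 0.307 in CT (SD, n = 11). The log2 difference of the means was -0.29 (SE 0.42, 95% interval -1.24 to 0.65, permutation p = 0.530).

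This difference in spread was not present with the cycles of all fish. Fish 2 and 12 of GH10 have tlr9 cycles but no deposited ratio, and recomputed they were at 7.04 and 8.06. Fish 6 of GB10, at 8.03, was kept. With all cycles the mean of tlr9 was 2.21 ± 2.53 in GH10 and 2.01 ± 2.18 in GB10, with 1.99 ± 3.44 in CT (SD, n = 12 each). The log2 difference became 0.17 (permutation p = 0.740), and the deviations no longer differed with p under 0.05 (permutation p = 0.491). Fish above 7 were thus present in both diets, 2 in GH10 and 1 in GB10. Control fish also included a high value, 12.9 in fish 6 of CT, which likewise has no deposited ratio.

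Of the 24 fish fed GH10 or GB10, the 3 highest in tlr9 were also high in cldn4 and cldn24, but not in every claudin. Fish 2 and 12 of GH10 had the highest cldn4 of their diet, at 3.05 and 2.98, and the highest cldn24, at 4.81 and 3.47. Fish 6 of GB10 had the highest cldn4 of its diet, at 2.83, with 3.08 for cldn24 and 2.35 for cldn3. All 3 fish were also above the median of their diet in cldn5 and cldn7b. For cldn5, fish 2 and 12 of GH10 were at 1.48 and 1.96 (median 1.09), and fish 6 of GB10 at 1.21 (median 0.810). For cldn7b, they were at 0.994 and 1.38 (median 0.932) and at 1.12 (median 0.907). However, cldn4l of fish 12 of GH10 was 0.933, below the median of 1.01 of its diet. In fish 6 of GB10, cldn15 was 0.976, just below the median of 0.983. Over the 5 diets, tlr9 was left out in 6 fish, and each of these was first or second in cldn4 of its diet. Within diets, tlr9 recomputed from all cycles and cldn4 correlated over the 24 fish fed GH10 or GB10 with Pearson's r = 0.865. The rank correlation rho, from ranks over both diets centred within each diet, was 0.803. For each, permutation p was 1e-05, the smallest that 100000 permutations can give, with BH 0.00014 over 28 pairs of 8 targets. The r was 0.857 in GH10 and 0.873 in GB10 (n = 12 each), and 0.842 without the 2 fish farthest from the median of cldn4. Between cycles alone, where eef1a enters neither value but the amount of cDNA enters both, it was 0.829. Over the 22 fish with a deposited tlr9 ratio, r was 0.791. The 8 targets were chosen after their values were seen, and BH adjustment does not cover that choice. Both targets were amplified late, at mean cycles of 31.5 for tlr9 and 32.6 for cldn4.

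**Figure D5:**
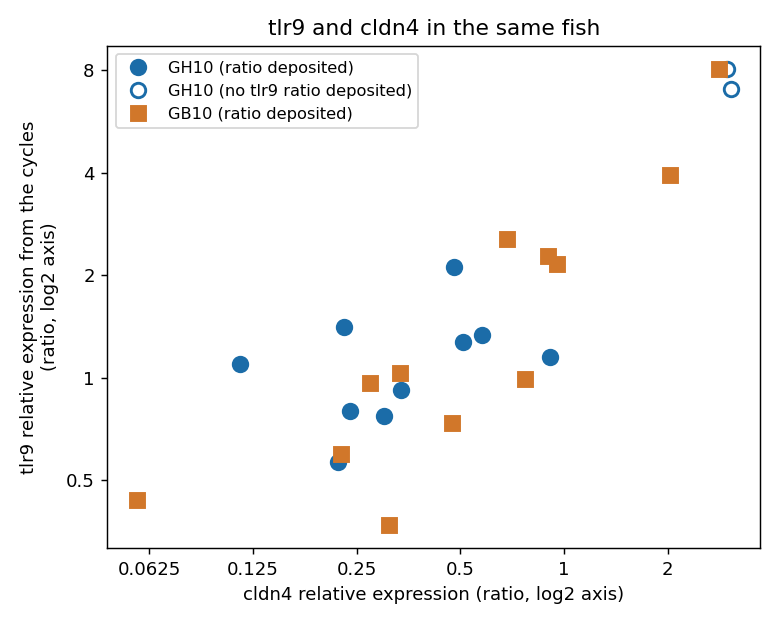
Relative expression of tlr9, recomputed from the cycles, against cldn4 (both as ratios on log2 axes) in the 24 fish fed GH10 (circles) or GB10 (squares). Open circles are fish 2 and 12 of GH10, whose tlr9 value was left out of the ratios (7.04 and 8.06). They lie beside fish 6 of GB10 (8.03), which was kept.

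The claudins cldn24 and cldn4 also moved together within diets (r = 0.775, rho = 0.775, permutation p = 1e-05 and 4e-05, BH 0.00014 and 0.000373), with r = 0.782 in GH10, 0.806 in GB10 and 0.700 between cycles alone. For cldn24 and tlr9, r was 0.728 and rho was 0.641 (permutation p = 3e-05 and 0.00096, BH 0.00028 and 0.00384), with 0.645 between cycles alone. Without the 2 fish farthest from the median, r was 0.707 for cldn24 and cldn4 and 0.597 for cldn24 and tlr9. Over the 22 fish with a deposited tlr9 ratio, r was 0.576 for cldn24 and tlr9. The pair cldn4l and cldn5 had a similar correlation (r = 0.774, rho = 0.789, permutation p = 4e-05 and 1e-05, BH 0.00028 and 0.00014, and r = 0.704 without the 2 farthest fish). Between their cycles alone, however, r was 0.257. For cldn5 and cldn15, the targets with p under 0.05 between diets, r was 0.651 and rho was 0.670 (permutation p = 0.00092 and 0.00074, BH 0.00368 and 0.00345, and r = 0.581 without the 2 farthest fish). It was 0.025 between cycles alone, where the eef1a cycle that enters both ratios is absent. This fall was not seen to the same extent in every pair of cldn5. For cldn5, r was 0.616 with cldn4, 0.640 with tlr9, 0.525 with cldn24, 0.700 with cldn7b and 0.138 with cldn3. Between cycles alone, these were 0.468, 0.472, 0.379, 0.285 and -0.123. With eef1a in both values, r was above 0 in 28 of 28 pairs of the 8 chosen targets. The BH value for r was under 0.05 in 16 of them (permutation test). Pairs with the remaining targets, among them cd4 and il10 on the same eef1a list, were not computed. The counts therefore describe the chosen targets only. Between cycles alone, r was above 0 in 21 and below 0 in 7 of the 28 pairs, with the lowest, -0.270, for cldn4l and cldn15.

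The difference between ingredients was also set against that at 0.5%, where GH5 and GB5 were fed. The difference at 1% minus that at 0.5% had p under 0.05 for 1 of the 14 targets (7.14%), which was cldn4l. Its relative expression ranged from 0.449 to 0.933 in GH5 with a median of 0.737, and from 0.588 to 1.35 in GB5 with a median of 0.889. The mean was 0.706 ± 0.149 in GH5 and 0.916 ± 0.216 in GB5 (SD, n = 12 each), so cldn4l was lower with LB-GUThealth at 0.5%, by 0.37 on the log2 scale, whereas at 1% its difference was 0.30. The difference of differences was 0.67 (SE 0.25, permutation p = 0.00872, BH 0.122). With the mean of the other targets as the reference it was 0.39 (permutation p = 0.199). For cldn15 it was 0.47 (permutation p = 0.0682) and for cldn5 0.32 (permutation p = 0.331), so a change of the cldn5 difference with dose was not detected.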

How the data were processed

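The authors deposited quantification cycles, not normalized, with 1 value per fish and gene. The deposited relative expression is a ratio, computed by the authors by the ΔΔCT method against eef1a and the mean of CT, after removal of outliers by the ROUT method. Outlier removal narrows the spread. Each intestine was amplified in duplicate with EvaGreen. How the cycles were called is not given in the sources used here. The authors' fold-change table, which holds their comparisons, was not used.

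Rows with the same number were taken as the same fish in every gene block. Over GH10 and GB10, the deposited ratio follows from the cycles and the first eef1a list in all fish with both values for the claudins, cd4, il10 and tlr9, within 0.02 on the log2 scale, and in 16 of 24 fish for igm. The occludins follow from the second list. Cycles of 0 were treated as missing. For cldn3, the cell of fish 11 of GB10 is empty. Ratios missing for 3 cycles of GH10 (2 tlr9, 1 cd4) were left out of the main tests. The settings with all cycles, 1 eef1a list, cycles alone or the mean of the other targets used these 3 cycles. Those settings also used the igm cycles equal to those of cldn15, except where igm and left-out cycles are said to be removed from the reference.

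Log2 ratios of the 24 fish were compared by two-sided permutation tests with 100000 random assignments, and intervals were obtained by inverting the test. Where a diet had fewer than 10 values, as among fish with all 14 targets, every possible assignment was used instead. Spread was tested on absolute deviations from the diet's median, and dose by permuting ingredients within a dose. BH adjustment was over 14 targets. For correlations, tlr9 was recomputed from all cycles. For r, values were centred within each diet. For rho, values were ranked over both diets together, and the ranks were then centred within each diet. These 8 targets were the 7 claudins and tlr9, chosen after their values were seen. Alternatives were the linear scale, ranks, a studentized statistic, limma's moderated test on log2 values, adjustment for 10 pairs of diets, all cycles, 1 eef1a list, other references, complete fish and leaving out each fish. The reference without occludins and igm in fish with a cycle of their own were chosen after seeing the data. The test of the mean difference and its interval were first tried on simulated data. The other tests, among them those of spread, dose and correlation, were not.

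All 14 targets are named, with full statistics for the 5 smallest p-values between diets and for targets under 0.05 in spread or dose. Targets and lists were chosen with earlier results of these data known. Through their accessions, 3 of 14 targets matched RefSeq (fSpaAur1.1), where cldn4 is named cldnb and cldn4l is named cldnk. Python 3.11.15 with numpy 2.4.6, scipy 1.17.1 and matplotlib 3.10.9, and R 4.3.3 with limma 3.58.1, were used.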

Additional observations from a re-analysis of the deposited data

Results flagged for a closer look

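The difference between ingredients in cldn4l had p under 0.05 when compared between doses (permutation test), but did not pass BH adjustment. At 1% minus 0.5% it differed by 0.6696 on the log2 scale, from a difference of 0.30 between GH10 and GB10 and of -0.37 between GH5 and GB5 (permutation p = 0.00872, BH 0.122 over 14 targets). With the mean of the other targets as the reference, this was 0.39 (permutation p = 0.199).

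The tlr9 cycles of 2 fish fed GH10 have no deposited ratio. Recomputed from their cycles, fish 2 was at 7.042 and fish 12 at 8.061, above the highest deposited value of CT, 1.62. The CT fish with a left-out tlr9 cycle was at 12.9.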

How the results depend on the processing

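Of the 14 targets, 2 had p under 0.05 (permutation test). The count was 0 with ranks, 0 after adjustment for 10 pairs of diets, 0 after BH and 0 in fish with all targets. It was 1, cldn5, with the mean of the other targets as the reference (also without igm and left-out cycles, and without the occludins) and with cycles alone. With each fish left out it was between 0 and 2. The permutation p of cldn5 and cldn15 was 0.0681 and 0.0774 with ranks, and 0.137 and 0.165 adjusted for pairs of diets. For cldn5, p was 0.05 or over without fish 1, 3, 8, 11 or 12 of GB10, or fish 2, 6, 7, 8, 11 or 12 of GH10.

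The count for spread was 0 with all cycles, 2 on the linear scale (cldn5 and cldn15, not tlr9), and 0 or 1 with each fish left out. The count for dose was 2 on the linear scale (cldn4l and cldn15) and 0 with the mean of the other targets. The eef1a difference was -0.1879 cycles with the second list, and 0.179 to 0.322 with each fish left out.

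Signs also turned for differences with permutation p over 0.05. With all cycles, igm was -0.01 and tlr9 0.1738, and with 1 eef1a list also oclnl 0.3917, oclnb 0.06708 and oclnc 0.2683. With the mean of the other targets, oclnl was 0.2183, oclnc 0.0858 and igm -0.2148. Without igm and left-out cycles in it, they were 0.2346, 0.1018 and -0.1843, and also without the occludins 0.2344, 0.1111 and -0.1673. With cycles alone, cldn7b was -0.001667, oclnl 0.155, oclnc 0.03167, igm -0.2467 and il10 -0.02625. In fish with all targets, il10 was -0.07753. On the linear scale, cldn4 was 0.009117. With an igm cycle of its own, igm was -0.1481. With each fish left out, cldn3 lay between -0.0226 and 0.479, cldn4 between -0.413 and 0.0982, oclnl between -0.197 and 0.139, and igm between -0.0258 and 0.270. The causes were not tested.

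Besides leaving out fish, 147 of 183 values kept their direction and side of the threshold. Of the remaining values, 24 turned in sign and 12 no longer passed the threshold. All of these 12 were of cldn5 or cldn15, the targets that passed it in the main test. The share kept was partly fixed in advance. The studentized statistic, limma, BH and the adjustment for pairs of diets leave the difference unchanged, so its direction could not turn there. BH can also only raise p. With all cycles or 1 eef1a list, the claudins and il10 kept the difference and p of the main test, because the same values entered. Most targets were also above the threshold from the start. The tank is unknown, 12 fish per diet limit precision, and for 6 targets a 2-fold difference lies within the interval. No paired analysis was possible because fish of different diets share only a row number.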
